A study of Mus musculus with 6 samples.

Results

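Class 3 semaphorins are secreted guidance proteins, and neuropilins and plexins of the A group form their receptor. Expression of this ligand and receptor family was compared between 2 regions of the lung of Mus musculus embryos at E11.5, when side branches form on both lungs. The branching region was dissected from the right and left lungs, and the non-branching region held both main bronchi with a piece of the trachea. The samples differ in region alone as far as the labels go: they give no strain, genotype or treatment, and do not say whether embryos were pooled. Each region was measured on 3 arrays with 1 total RNA sample each, called here replicates 1 to 3, and nothing says that the replicates came from separate litters, so the p-values below rest on a spread that may be purely technical. The 10 members were chosen by symbol: the ligand genes Sema3a, Sema3b, Sema3c, Sema3e and Sema3f, the neuropilin genes Nrp1 and Nrp2, and the plexin genes Plxna1, Plxna2 and Plxna3. Of these, 9 genes had a probe set (a group of short oligonucleotides designed against 1 transcript) named for that gene alone, among 8251 such genes on the array, and Nrp2 was not analysed here. They had 11 probe sets among 12422, since Sema3b and Nrp1 have a pair each. The family was proposed with the differences of Sema3a and Nrp1 between these regions already known, so their differences and calls are given as a description and support nothing beyond it.

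A class 3 semaphorin is bound by a neuropilin, which has only a short cytoplasmic tail, and the signal is passed on by an A-type plexin whose intracellular part acts on small GTPases and so on the actin cytoskeleton. Sema3A signals through neuropilin 1, Sema3F mainly through neuropilin 2, Sema3C through either, and Sema3E can bind plexin D1 without a neuropilin. Neuropilin 1 is also a co-receptor for VEGF on endothelial cells, and both neuropilins are found on neural crest cells and axons. In cultured fetal mouse lung, added Sema3A is known to inhibit branching, while Sema3C and Sema3F are known to promote it.

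In the ligand and receptor genes, Sema3a was higher and Nrp1 lower in the branching region, and the plexin genes and Sema3f did not pass the test. Signals are intensities on a linear scale as deposited, with similar medians on all arrays. The background level was 147, which 95% of the 114 values of 19 probe sets for transcripts of bacteria and yeast did not exceed. Array medians ran from 212 to 229. Those probe sets had a median of 19.8 to 40.7 on 5 arrays and of 78.8 on the sixth, non-branching replicate 2. The 3' to 5' log2 difference of the actin controls ranged from 0.20 to 0.49, except on non-branching replicate 3, where it was 0.75. Of the markers that define lung, Sftpc, a gene of the tip epithelium, was above background on all arrays but non-branching replicate 2. Foxa2, an endoderm gene, was above background on all 6 arrays, while Fgf10, a gene of the distal mesenchyme, was below it on all 6. Of 6 lung genes tested with limma, a linear model described below, 0 were called and 4 had an unadjusted p under 0.05 (66.7%, beside 15.6% of all genes tested). Sftpc and Foxf1 were higher in branching (log2 differences 1.99 and 1.42), and Foxa2 and Id2 lower (-0.62 and -0.45). The list median was 0.12.

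**Figure D1:**
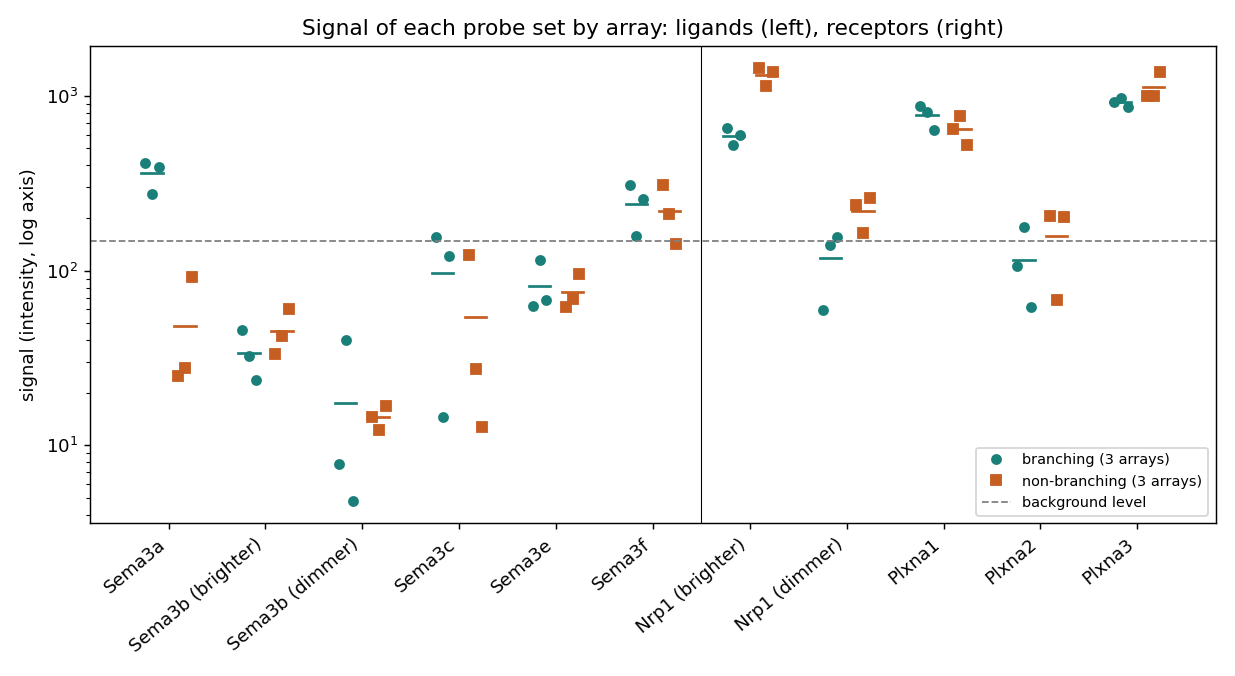
Signal of the 11 probe sets on each array (log axis, intensity), with branching arrays as circles, non-branching arrays as squares, short lines for the mean of 3 arrays and a dashed line at the background level of 147. Sema3a lies above the line on the 3 branching arrays and below it on the 3 non-branching arrays, and the brighter Nrp1 probe set is lower on all 3 branching arrays.

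Sema3a (Entrez gene 20346) encodes the ligand that repels axons and vessel tips. It gave 416, 274 and 392 on branching replicates 1 to 3, and 25, 27.6 and 91.6 on non-branching replicates 1 to 3. All 3 branching arrays were above background and all 3 non-branching arrays below it, with non-branching replicate 3 the highest of its group and still below the lowest branching array. The mean signal was 361 ± 75.7 over the branching arrays and 48.1 ± 37.7 over the non-branching arrays (SD, n = 3). Because the non-branching level has only an upper bound, the size of the change is given with each non-branching array raised to the background level, and on that basis the branching level was higher at least 2.41-fold. This bound compares means on the log2 scale and does not include the spread of the arrays. The call is that of limma, a linear model fitted to all 9316 probe sets tested with values below 16 raised to 16 (Benjamini-Hochberg adjusted p = 0.0246). With all values below the background level raised to it, and 9025 probe sets tested, the limma adjusted p was 0.0384. Its fitted difference stood at rank 2 among the rises of all probe sets tested, an order that depends on the floor set for low values. Sema3a passed in 1 of the 6 fits that each left out 1 array, the one without non-branching replicate 3 (adjusted p = 0.0150). In the other 5 the limma adjusted p ran from 0.0595 without non-branching replicate 1, through 0.0687 without branching replicate 2, 0.0817 without non-branching replicate 2 and 0.0897 without branching replicate 1, to 0.120 without branching replicate 3.

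Sema3f (Entrez gene 20350) encodes the neuropilin 2 ligand and was above background on 3 branching and 2 non-branching arrays. Its signal was 311, 158 and 257 on the branching arrays and 309, 212 and 141 on the non-branching arrays. The groups overlapped over nearly their whole range, with means of 242 ± 77.4 and 221 ± 84.4. The log2 difference, branching minus non-branching, was 0.15 ± 0.40 (SE, limma adjusted p = 0.911), with a 95% interval from -0.75 to 1.04. That interval does not exclude a change of 2.06-fold up or 1.68-fold down.

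The remaining 3 ligand genes were at or near background. Sema3c (Entrez gene 20348), whose product guides neural crest cells to the cardiac outflow tract, gave 156, 14.5 and 121 on the branching arrays and 122, 27.5 and 12.8 on the non-branching arrays. Branching replicate 1 was the only array above background, and values within each region differed by about as much as the whole range. Sema3e (Entrez gene 20349), the plexin D1 ligand, gave 62.7, 114 and 68 in branching and 62.2, 68.6 and 95.8 in non-branching, below background on all 6 arrays (limma adjusted p = 0.968). Both probe sets of Sema3b (Entrez gene 20347), which encodes a secreted semaphorin also studied as a tumour suppressor, were below background on all arrays, at 23.6 to 60.3 for the brighter one and 4.8 to 40.1 for the other, of a less specific design. Sema3b and Sema3c were among the 25% dimmest probe sets and were not tested, and no difference between regions is given for these 3 genes. In the RefSeq gene table (assembly GRCm38.p6), Sema3a and Sema3e lie near each other with 3 protein-coding genes between them, as do Sema3b and Sema3f. Within each of these neighbouring pairs 1 gene was above background on the branching arrays (Sema3a and Sema3f) and the other was below it.

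Nrp1 (Entrez gene 18186), the only neuropilin gene measured, was lower in branching. Its brighter probe set gave 656, 526 and 596 on the branching arrays and 1451, 1134 and 1373 on the non-branching arrays. All 3 branching arrays lay below all 3 non-branching arrays, and the arrays of each region lay close together. The means were 593 ± 64.97 and 1320 ± 165 (SD, n = 3), a fall by 1.15 ± 0.16 on the log2 scale, or 2.22-fold (SE, limma adjusted p = 0.00790). The 95% interval of the difference ran from -1.51 to -0.79. The call held in 5 of the 6 fits that left out 1 array and was lost without non-branching replicate 3 (adjusted p = 0.0506) and when the variance was not modelled as a function of signal (adjusted p = 0.0928), where Sema3a did not pass either (adjusted p = 0.114).

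The dimmer Nrp1 probe set gave 59.7, 141 and 156 in branching and 239, 164 and 259 in non-branching. Its groups did not overlap, in the same direction as the brighter one, but the gap between 156 and 164 was small, and 1 of 3 branching arrays was above background. Its log2 difference was -0.99 ± 0.46 (SE, limma adjusted p = 0.371), so it did not pass. The spread of its branching arrays on the log2 scale was 0.76 (SD), against 0.16 for the brighter probe set.

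The 3 plexin genes encode the signalling subunits. Plxna1 (Entrez gene 18844) gave 880.4, 809 and 635 in branching and 648, 762 and 525 in non-branching, overlapping groups with a log2 difference of 0.27 ± 0.20 (SE, limma adjusted p = 0.603, 95% interval -0.18 to 0.72). Plxna3 (Entrez gene 18846) gave 928, 966 and 867 in branching and 997, 1001 and 1378 in non-branching. Its groups did not overlap, but 2 of the 3 non-branching arrays were close to the branching arrays, and the difference of -0.27 ± 0.16 did not pass (limma adjusted p = 0.487, 95% interval -0.64 to 0.09). Plxna2 (Entrez gene 18845) was dimmer, with 106, 177 and 62.1 in branching and 206, 67.9 and 201 in non-branching. It was above background on 1 branching and 2 non-branching arrays, and its difference of -0.43 ± 0.59 did not pass (adjusted p = 0.804). The intervals of Plxna1 and Plxna3 exclude a 2-fold change in either direction, whereas that of Plxna2, from -1.76 to 0.91, does not exclude a 3.39-fold fall.

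**Figure D2:**
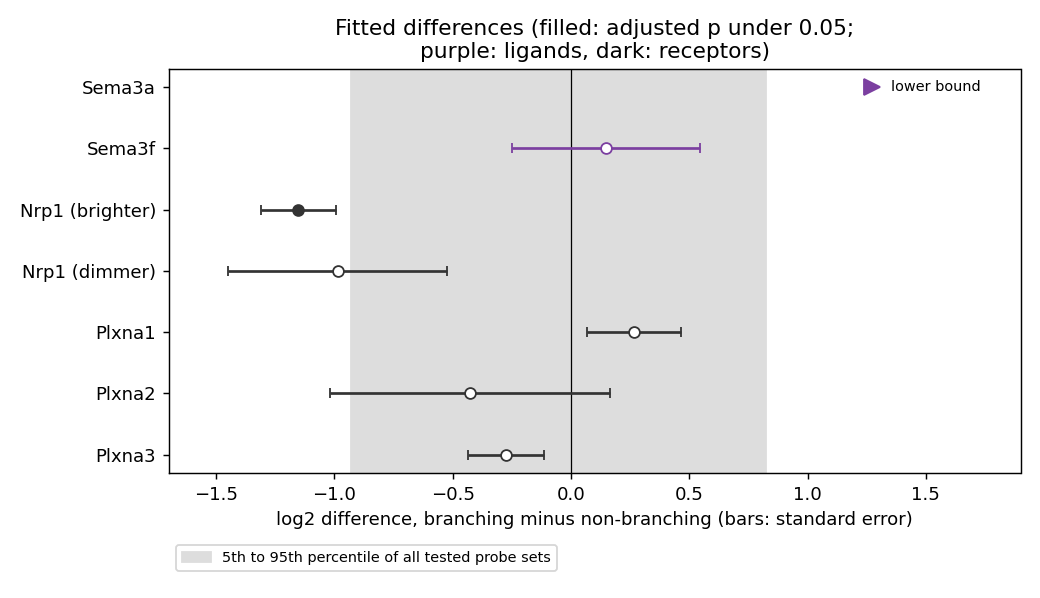
Log2 difference between branching and non-branching arrays for the 7 tested probe sets that were above background on at least 1 array, with bars for the standard error, filled symbols for an adjusted p under 0.05 and a grey band from the 5th to the 95th percentile of all 9316 probe sets tested (-0.93 to 0.82). Sema3a is drawn without a bar at its lower bound of 1.27, the difference of means with the non-branching arrays raised to the background level. That bound does not include the spread of the arrays. The brighter Nrp1 probe set at -1.15 lies outside the band on the other side.

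Of the 8 member probe sets tested, 1 was called higher and 1 lower in branching at a limma adjusted p under 0.05, and 6 did not pass. Across all 9316 probe sets tested 2.03% were called, 0.902% higher and 1.13% lower. The signals of the regions did not overlap for 4 of the 8 tested member probe sets (1 higher and 3 lower in branching), beside 20.8% of all probe sets tested (9.79% higher and 11% lower). Since these differences were known when the family was chosen, nothing is read from either share. The tested ligand probe sets had a median log2 difference of 0.15 and those of the receptors -0.43, beside -0.0046 over all probe sets tested. Of the 5 receptor probe sets, 4 had a negative difference and Plxna1 a positive one.

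For ligands against receptors, the log2 signals of the 5 ligand genes and of the 4 receptor genes were averaged on each array. Signals of different probe sets are not comparable as levels, so only the shift between regions is described. Sema3b, Sema3c and Sema3e, at or near background, enter the ligand mean with the same weight as Sema3a and Sema3f. The ligand mean and the offset thus include signals that cannot be compared between regions. The ligand mean was 6.998, 6.28 and 6.78 on the branching arrays and 6.07, 5.62 and 5.85 on the non-branching arrays. The receptor mean was 8.50, 8.78 and 8.32 in branching and 9.05, 8.59 and 9.09 in non-branching. The ligand means did not overlap between regions, and the receptor means did. That separation of the ligands rested on Sema3a. With Sema3a left out the ligand means overlapped, at 6.57, 5.83 and 6.32 in branching and 6.42, 5.83 and 5.68 in non-branching. The ligand minus receptor offset was -1.85 ± 0.57 over the branching and -3.06 ± 0.15 over the non-branching arrays (SD, n = 3), 1.22 higher in branching on the log2 scale, with branching replicate 2 (-2.50) the nearest to the non-branching arrays. No test of this score is given, because its members were chosen with results known. Without Sema3a the offset was 0.64 higher in branching, with overlapping arrays, from -2.95 to -1.93 in branching and from -3.41 to -2.62 in non-branching. Without Nrp1 it was 0.99 higher. Restricted to probe sets above background in a region, which leaves Sema3a and Sema3f as the ligands, it was 2.03. Sema3a passed that filter only through its branching mean, with non-branching signals below background. The dimmer Nrp1 probe set (means 119 in branching and 221 in non-branching) and Plxna2 (115 and 158) passed only through their non-branching means. Since these probe sets were kept through the region where they are high, nothing is read from the 2.03. With every array raised to the background level the offset was 0.55 higher.

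**Figure D3:**
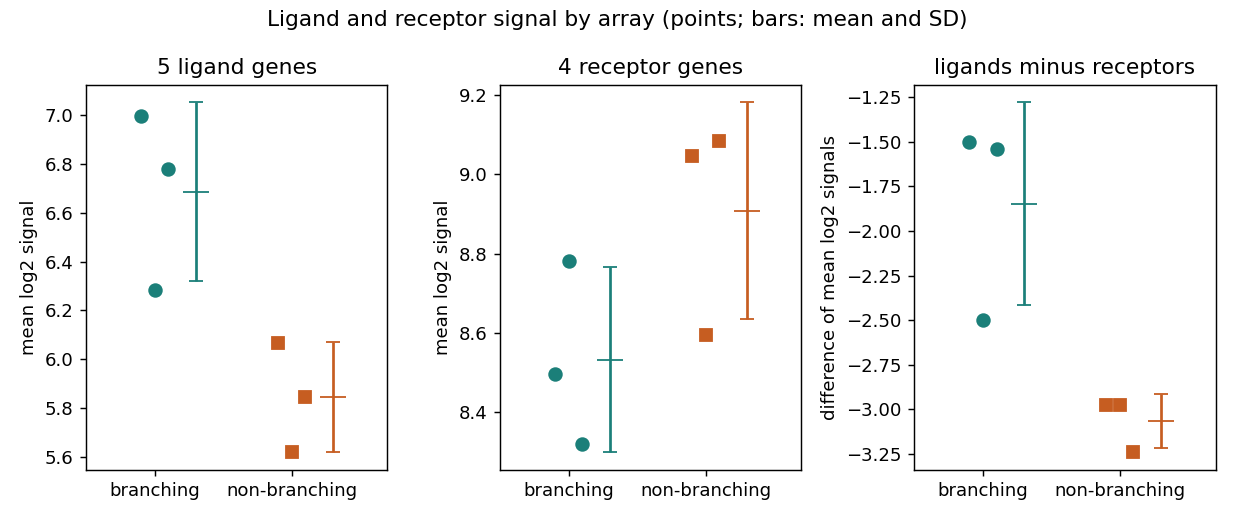
Mean log2 signal of the 5 ligand genes, mean log2 signal of the 4 receptor genes, and their difference on each array (points), with the mean and SD of 3 arrays beside them; the vertical axes do not start at 0 and differ between panels. The ligand minus receptor difference is -2.50 to -1.50 on the branching arrays and -3.24 to -2.98 on the non-branching arrays.

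The other genes of semaphorin and neuropilin signalling showed no called change. Of 59 genes listed, 42 had a probe set and 37 were tested with limma, of which 0 were called and 3 had an unadjusted p under 0.05. Their share of unadjusted p under 0.05 was 8.11%, beside 15.6% of the 6798 genes tested with 1 probe set each. The median log2 difference was -0.06, beside -0.0083 over those genes. Of these 6798 genes 2.32% were called.

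Of 10 other semaphorin genes tested none was called. Sema4a, a membrane-bound semaphorin gene, gave 450.1, 562 and 379 in branching and 297, 208 and 366 in non-branching, with a log2 difference of 0.69 ± 0.28 (SE, limma adjusted p = 0.290). Its arrays did not overlap, but the gap between 379 and 366 was small. Sema6c, a transmembrane semaphorin gene, differed by -0.63 ± 0.29 (adjusted p = 0.369). Of the other plexin genes, Plxnd1, the receptor gene for Sema3E, gave 1816, 1435 and 1726 in branching and 1425, 1276 and 1393 in non-branching, and its difference of 0.28 ± 0.13 missed the threshold (adjusted p = 0.370). Plxnb2, a receptor gene for class 4 semaphorins, differed by -0.05 ± 0.15 (adjusted p = 0.930).

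Among co-receptors, Flt4, the VEGF receptor gene of lymphatic and early vascular endothelium, gave 273, 290.1 and 361 in branching and 532, 483 and 525 in non-branching. The groups did not overlap, and the log2 difference of -0.75 ± 0.21 did not pass (SE, limma adjusted p = 0.130). Its dimmer probe set differed by 0.39 (adjusted p = 0.888). Flt1, another VEGF receptor gene, differed by -0.65 ± 0.52 (adjusted p = 0.629), with its dimmer probe set below background on all arrays. The adhesion genes L1cam, Nrcam and Chl1 and the receptor gene Met had probe sets too dim to be tested.

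Of the 5 VEGF-family ligand genes, Vegfa, the principal angiogenic ligand and a neuropilin 1 ligand, gave 246, 257 and 166 in branching and 168, 179 and 41.8 in non-branching, and its difference of 1.02 ± 0.58 did not pass (SE, limma adjusted p = 0.464). The low value was that of non-branching replicate 3. Vegfd, which encodes a lymphangiogenic ligand, was below background on all 6 arrays, at 11.9 to 131 in branching and 79.1 to 121 in non-branching (adjusted p = 0.656). Of the 4 proprotein convertase genes, which encode proteases that cut semaphorins, Furin differed by -0.23 ± 0.16 (adjusted p = 0.574) and Pcsk5 by -0.09 ± 0.28 (adjusted p = 0.930).

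Of 13 cytoplasmic effector genes none was called. Crmp1, which encodes a collapsin response mediator protein that relays Sema3A signals in neurons, gave 289, 334 and 439 in branching and 633, 523 and 527 in non-branching, a difference of -0.68 ± 0.22 (SE, limma adjusted p = 0.196). Dpysl2, of the same family, gave 627, 522 and 587 in branching and 761, 789 and 675 in non-branching, a difference of -0.36 ± 0.16 (adjusted p = 0.351). The differences were negative for all 4 members of this family that were tested, and 3 of them had arrays that did not overlap between regions, an observation made after their values were seen. Over all 9316 probe sets tested, 4699 had a negative difference and 11% did not overlap and were lower. None of the 4 passed. Dpysl4 differed by -0.31 ± 0.17 (adjusted p = 0.446) and Dpysl3 by -0.45 ± 0.45 (adjusted p = 0.716).

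**Figure D4:**
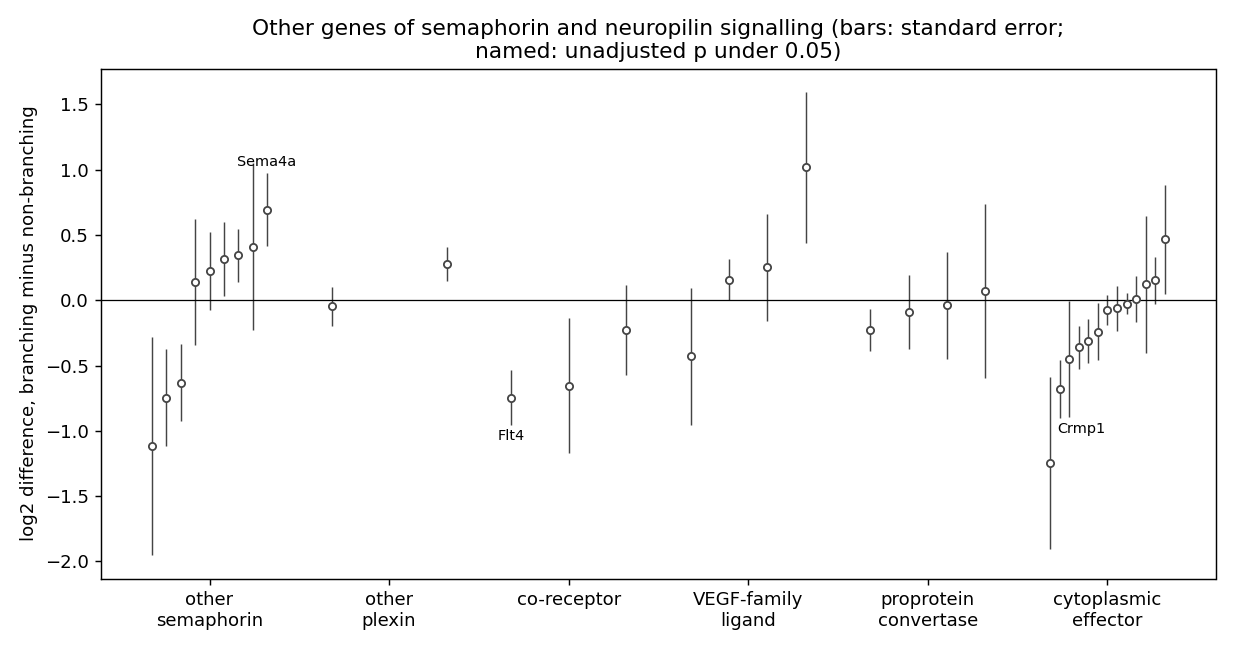
Log2 difference between branching and non-branching arrays with its standard error for the 35 of 37 tested signalling genes above background on at least 1 array, grouped by role, 1 probe set per gene. Names mark the 3 genes with an unadjusted p under 0.05 (Sema4a, Flt4 and Crmp1), none of which passed after adjustment.

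Markers of the cell types in which Nrp1 is known to be expressed, and of others the dissected regions could hold, were measured on the same arrays, and their counts of calls stand beside 2.32% of all genes tested. In dissected tissue, fewer cells of a type and less RNA per cell cannot be told apart. Of 15 endothelial genes tested, 1 was called lower in branching and none higher, with a median log2 difference of -0.37. The called gene was Vwf, which encodes the von Willebrand factor of vessel walls, at 41.5 to 68.9 in branching, below background, and 288 to 465 in non-branching (limma adjusted p = 0.00851). Only Cldn5, a tight junction gene (0.54, adjusted p = 0.269), Cd34 (0.41, adjusted p = 0.656) and Ramp2 (0.32, adjusted p = 0.443) had a positive difference, and none passed. The rest were negative, with Tie1 (-0.90, limma adjusted p = 0.0910) and Sox18 (-0.53, adjusted p = 0.125) nearest to the threshold after Vwf. An unadjusted p under 0.05 was seen for 4 of the 15 (26.7%, beside 15.6% of all genes tested), Cldn5 among them. The summed signal of the listed genes with a probe set was 7884 to 8295 on the branching arrays and 8948 to 9151 on the non-branching arrays. The 2 defining endothelial genes were above background in both regions: Kdr, the main VEGF receptor gene, was 164 to 360 in branching and 226 to 313 in non-branching (limma adjusted p = 0.826), and Cdh5, the endothelial cadherin gene, was 414 to 645 and 515 to 584 (adjusted p = 0.841). Of 11 neuronal and neural crest genes tested, 1 was called lower and none higher, with a median of -0.23 and a summed signal of 6081 to 6412 in branching and 7462 to 7636 in non-branching. The called gene was Sox10, a neural crest transcription factor gene, at 770 to 945 in branching and 1489 to 1991 in non-branching (adjusted p = 0.00974). Its means of 829 and 1718 are part of these sums, so the sums are not separate evidence for the list. Th, Nefl, Nefm, Tubb3 and Ednrb had positive differences, and none passed. Of these, Tubb3 had arrays that did not overlap (0.16, limma adjusted p = 0.563). The rest of the tested genes were negative, with Gap43 and Uchl1 also at an unadjusted p under 0.05.

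Of 9 smooth muscle genes, 5 were called lower in branching (Myh11, Acta2, Tagln, Cnn1 and Actg2; list median -0.72), with a summed signal of 7899 to 8567 against 13601 to 15030 in non-branching. Of 8 cartilage primordium genes 3 were called lower (Matn4, Col9a3 and Col9a2; list median -0.55), with sums of 3792 to 3947 against 6360 to 6995, and Col2a1, the main cartilage collagen gene, was 243 to 266 in branching and 184 to 247 in non-branching (limma adjusted p = 0.758). Of 13 epithelial genes none was called (limma, 2 with an unadjusted p under 0.05, Cldn6 and Foxa2), with a median of 0.10 and sums of 5527 to 6858 in branching and 5404 to 6015 in non-branching. The epithelial cadherin gene Cdh1 was 796 to 1117 in branching and 752 to 1043 in non-branching, and the epithelial adhesion gene Epcam, above background on 1 array only, was 92.7 to 113 and 104 to 152. Of 3 mesothelial and 8 leukocyte genes none was called, by limma, with no unadjusted p under 0.05 in either list. Their summed signals were 1580 to 1819 and 2143 to 2680 in branching, and 1321 to 1770 and 2191 to 2431 in non-branching. The mesothelial gene Wt1 was 168 to 300.1 in branching and 150 to 164 in non-branching, and Upk3b was 888 to 1031 and 731 to 957. Ptprc, the pan-leukocyte gene, was below background on all 6 arrays, and Csf1r, a macrophage receptor gene, was 330 to 422 in branching and 229 to 308 in non-branching (limma adjusted p = 0.404). Of 8 red blood cell genes 3 were called higher (Hbb-y, Hba-x and Hba-a1; list median 0.34), with sums of 136550 to 152062 against 88550 to 96001. These sums consist mostly of the 3 called globin genes, with branching means of 63392, 44661 and 31071. Epor (-0.90, limma adjusted p = 0.510) and Klf1 (-0.48, 0.787) had negative differences. Those of Alas2, Gata1 and Hbb-bh1 were positive (0.41, 0.26 and 0.12), and their arrays overlapped between regions. The part of these cell types in the differences of Nrp1 and Sema3a was not tested.

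**Figure D5:**
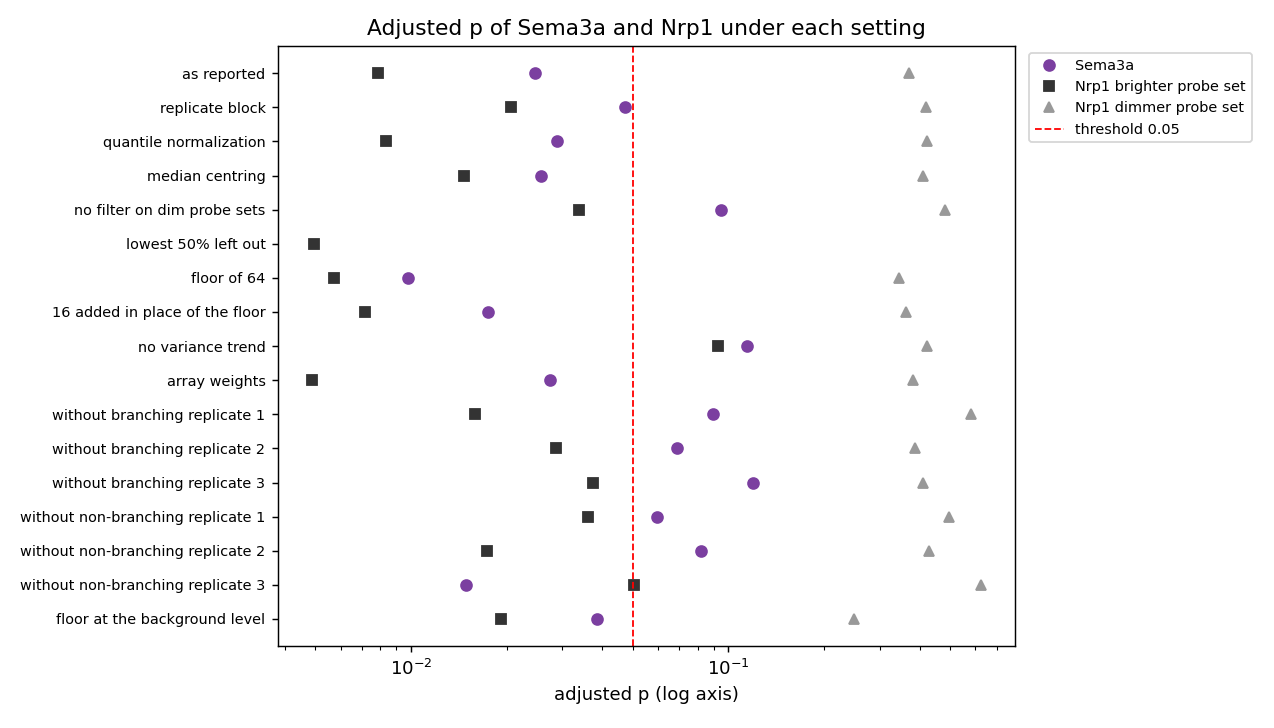
Adjusted p (log axis) of Sema3a and of both Nrp1 probe sets in the reported fit and under each other setting, with the threshold of 0.05 as a dashed line; Sema3a and the dimmer Nrp1 probe set were not tested with the lowest 50% of probe sets left out. The brighter Nrp1 probe set is past the threshold except without a variance trend and without non-branching replicate 3, Sema3a misses it under 7 settings, and the dimmer Nrp1 probe set did not pass in any.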

How the data were processed

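The deposited intensity values, on a linear scale with 1 column per array, ran from 0.4 to 132374. No source used here says how the authors computed them. The arrays already had a common level, which was kept. The 66 control probe sets were left out, and genes were named from the platform annotation table, in which 10833 of 12422 probe sets had 1 symbol, 396 several and 1193 none. Coordinates are left out, and gene order was taken from the RefSeq gene table (assembly GRCm38.p6). Values below 16 were raised to 16, log2 was taken, and the dimmest 25% of probe sets by mean were not tested. The other 9316 were fitted with limma 3.58.1 in R 4.3.3 (lmFit, eBayes with a variance trend, two-sided, Benjamini-Hochberg over all 9316). The floor understates changes of dim genes. The scripts were tested on simulated data. Precision is limited by the number of arrays. Where a signalling or marker gene had several probe sets, the brightest by mean log2 signal was used. Named genes were all members and, in each role of the signalling list, the called genes or else the 2 with the smallest p. Of the first 2 markers listed for each cell type, those with a probe set of that symbol alone were named too. Other marker or signalling genes named were chosen after their values were seen. The members and lists were chosen with earlier results of these data known.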

Additional observations from a re-analysis of the deposited data

How the results depend on the processing

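Sema3a kept its direction in the 15 alternatives that tested it and its call in 8 of them, and the brighter Nrp1 probe set kept its direction in 16 and its call in 14. Besides the omissions of single arrays, Sema3a lost its call without the filter on dim probe sets (limma adjusted p = 0.0948) and without the variance trend. No other tested member was called in any alternative that tested it, and the signalling list had 0 calls in all 16. Member probe sets called, 2 as reported, were 1 without the filter, 1 with the lowest 50% left out (which left Sema3a untested), 0 without the variance trend, and 1 in each omission of an array. Over all probe sets, 84 higher and 105 lower became 38 and 62 without the filter and 5 and 17 without the trend, and ran from 16 to 69 and from 38 to 98 over the omissions. The replicate numbers were shared between regions, but same-numbered arrays did not deviate together (correlations -0.01 to 0.01). The labels do not say whether same-numbered samples came from the same embryos, and correlations over 3 arrays per region cannot settle it. With the number as a block in limma 44 probe sets were higher, and Sema3a (adjusted p = 0.0474) and Nrp1 (0.0207) still passed. The difference of Sema3f, 0.15, ran from -0.14 to 0.43 over the omissions of single arrays, being -0.06 without branching replicate 1 and lowest when non-branching replicate 3 was left out. The ligand minus receptor shift, 1.22, was 0.54 with the lowest 50% left out, which removes Sema3a. That setting leaves Sema3f as the only ligand, beside the brighter Nrp1 probe set, Plxna1 and Plxna3. The shift was 2.03 with only probe sets above background in a region, which leaves Sema3a and Sema3f as the ligands. Sema3a passed that filter only through branching, and the dimmer Nrp1 probe set and Plxna2 only through non-branching. Nothing is read from that value. Chosen after seeing the data, a floor at the background level gave 0.55 and leaving out Sema3a 0.64. The shift was 1.04 to 1.54 over the omissions of single arrays. Genes at background, 3 of the 5 ligand genes, cannot be compared between regions at this signal.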
